A study of Arabidopsis thaliana with 15 samples.

Results

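Type IV leaves of the Arabidopsis thaliana ubc22 mutant were compared with Type III leaves of the same mutant, using 6 of the 15 libraries of the series (3 of each type). The libraries were taken by their labelled phenotype. Type IV stands for small ubc22 plants with toothed leaf edges, and Type III for ubc22 plants whose pale leaves are long and narrow. Both groups carry the ubc22 mutation in the Col-0 background, and all plants descended from 1 mutant parent and were sorted by eye, so the types differ in appearance and not in a labelled genotype. WT (Col-0) libraries, 3 in number, serve as the outside point against which both types are placed. All plants were 21 days old and were grown at 22 °C under a 16-h photoperiod, and RNA came from leaves. The allele of ubc22, the number of plants behind each library and the hour of harvest are not given in the sources used here.

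UBC22 encodes a ubiquitin-conjugating enzyme, the middle step of the cascade by which proteins are tagged with ubiquitin. The plant circadian clock is a set of repressors and activators that peak at different hours: CCA1 and the related RVE factors peak near dawn, the PRR proteins follow through the day, and the evening complex of ELF3, ELF4 and LUX comes at dusk. Salicylic acid is the hormone of defence against biotrophic pathogens, and PR1 is its most used marker gene. Leaf edges and leaf proportions depend on TCP, CUC, GRF and SPL factors, and leaf colour on chlorophyll synthesis under GLK1 and GLK2. Loci of chromosomes 4 and 3 are kept apart from those of chromosomes 1, 2 and 5, since the types differ along the whole of both; the number of chromosomes in these plants was not measured.

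Among 17595 loci with a mean of at least 10 normalized reads over the 15 libraries, 6091 differed between Type IV and Type III (limma, Benjamini-Hochberg adjusted p under 0.05), which is 34.6% of the loci tested. Of these, 2680 were higher in Type IV (15.2%) and 3411 were lower (19.4%). The libraries of both types held 10090917 to 13138977 reads in genes. Type IV replicate 3 stood apart within its group, with a chi-square per degree of freedom of 16.6 and 20.12 against the other Type IV libraries, which differed from each other by 6.65. The Type III pairs lay between 6.01 and 10.4, so no pair agreed within sampling noise. Summed levels of root markers were 396 to 465 normalized reads in Type IV and 378 to 473 in Type III, and seed markers summed to 5.32 to 17.5 in Type IV and 5.42 to 14.3 in Type III. The 7 mesophyll markers summed to 526880 to 539578 in Type IV and 483414 to 646724 in Type III, so that markers of the labelled tissue were abundant in both types. In bulk leaves, fewer cells of a type and less RNA per cell cannot be told apart.

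UBC22 itself (AT5G05080, chromosome 5, 1498438 to 1500784 in TAIR10.1, minus strand) did not separate the types. It had 318, 378 and 243 normalized reads in Type IV libraries, 320, 294 and 296 in Type III libraries and 663, 696 and 696 in WT libraries. All 6 mutant libraries lay below all 3 WT libraries, and the mutant types overlapped. The log2 difference between Type IV and Type III was 0.02 ± 0.15 (SE, adjusted p = 0.914), and it fell to -0.12 when scaling rested on chromosomes 1, 2 and 5 alone (adjusted p = 0.553). Against WT the log2 difference was -1.15 in Type IV and -1.17 in Type III, by the same WT libraries.

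The types differed over the whole of chromosomes 4 and 3. On chromosome 4, 42.1% of 2637 tested loci were called: 1015 were lower in Type IV (38.5%) and 96 were higher (3.64%). On chromosome 3, 50.9% of 3533 tested loci were called: 1678 were lower in Type IV (47.5%) and 122 were higher (3.45%). On chromosomes 1, 2 and 5, 27.9% of 11346 tested loci were called: 2453 were higher (21.6%) and 714 were lower (6.29%). All Type IV libraries lay below all Type III libraries for 49.1% of loci on chromosome 4 and 60.6% on chromosome 3, and above them for 5.23% and 4.9%. The median log2 difference between Type IV and Type III was -0.32 on chromosome 4, -0.37 on chromosome 3 and 0.15 on chromosomes 1, 2 and 5.

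Relative to chromosomes 1, 2 and 5, chromosome 4 loci stood at a median of -0.46 on the log2 scale in Type IV against Type III, a ratio of 0.725. The 3 Type IV libraries, each set against the mean of the Type III libraries, gave -0.52, -0.52 and -0.33 for chromosome 4. Chromosome 3 loci stood at -0.52, a ratio of 0.698, and the 3 Type IV libraries gave -0.53, -0.51 and -0.50. Type IV replicate 3 thus had the smallest chromosome 4 shift, while the chromosome 3 shift was nearly the same in all 3 libraries. Without Type IV replicate 3 the chromosome 4 shift was also -0.52. No p is attached to these shifts, since genes are not replicates.

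WT placed the chromosomes differently. Type III had a chromosome 3 median of 0.48 against WT on the log2 scale, where Type IV had 0.11. Type IV had a chromosome 4 median of -0.41 against WT, with 1 value per library of -0.47, -0.48 and -0.29, where Type III had a mean of -0.11 over its libraries. Chromosomes 1, 2 and 5 had 0.05 in Type IV and -0.10 in Type III, as means over libraries against the same WT libraries. Chromosome 3 thus stood apart from WT mainly in Type III, and chromosome 4 mainly in Type IV. Chromosome 2 took a smaller place of its own, at -0.16 relative to chromosomes 1, 2 and 5 together in Type IV against Type III. Against WT this shift was -0.16 in Type IV and -0.002 in Type III, as means over libraries. Of 2659 tested loci of chromosome 2, 285 were higher in Type IV than in Type III and 319 lower. Chromosome 1 had 1127 higher and 218 lower of 4626, and chromosome 5 had 1041 and 177 of 4061. The shares pooled over chromosomes 1, 2 and 5 thus do not describe chromosome 2.

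**Figure D1:**
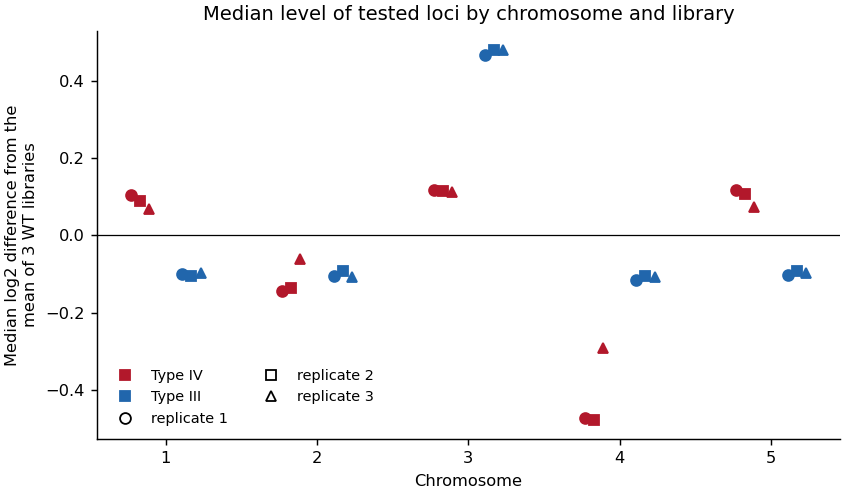
Median log2 difference of the tested loci of each chromosome, Type IV and Type III libraries each set against the mean of the WT libraries, 1 point per library. Type III libraries sit near 0.48 on chromosome 3, Type IV libraries near 0.11 there, and Type IV libraries sit between -0.48 and -0.29 on chromosome 4.

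The shares of reads moved in the same way. Chromosome 3 took 20.9 ± 0.589% of reads in Type IV, 26.8 ± 0.153% in Type III and 19.3 ± 0.217% in WT (SD, n = 3 each). Chromosome 4 took 10.6 ± 0.762% in Type IV, 12.8 ± 0.137% in Type III and 14.5 ± 0.228% in WT. In both chromosomes the 3 library values of Type IV spread wider than those of Type III.

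The shifts ran from end to end of each chromosome. In windows of at least 150 tested loci in gene order, all 17 windows of chromosome 4 had medians between -0.41 and -0.25 on the log2 scale, Type IV minus Type III, and all 23 windows of chromosome 3 lay between -0.46 and -0.33. The 30 windows of chromosome 1 lay between 0.08 and 0.26, the 27 of chromosome 5 between 0.11 and 0.28, and the 17 of chromosome 2 between -0.08 and 0.04. No window of chromosomes 4 or 3 reached the range of the others. The shift differed little by expression level: relative to loci of the same level on chromosomes 1, 2 and 5, it was -0.44, -0.46 and -0.48 in 3 equal classes of chromosome 4 loci from low to high level and -0.51, -0.51 and -0.53 on chromosome 3. Of chromosome 4 loci 12.7% lay above the median of chromosomes 1, 2 and 5, and of chromosome 3 loci 10.7%.

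**Figure D2:**
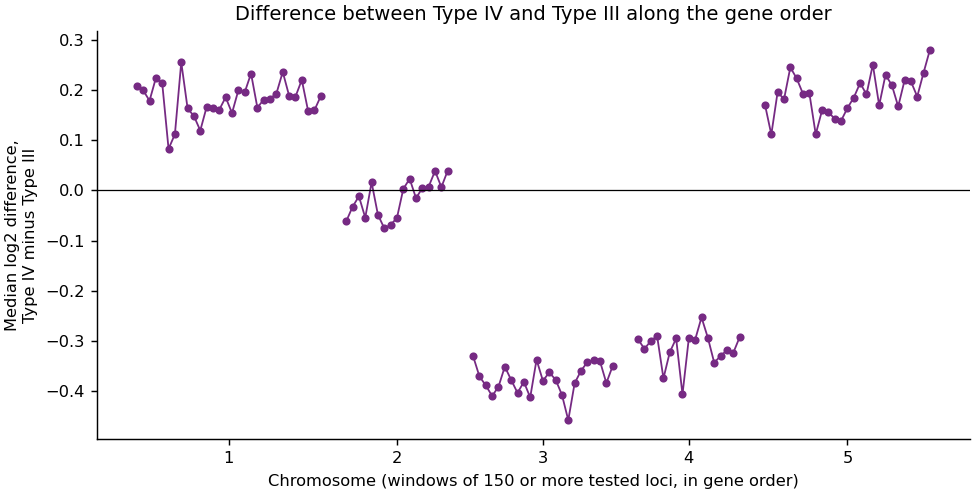
Median log2 difference, Type IV minus Type III, in consecutive windows of 150 or more tested loci along each chromosome (gene order, no coordinates). Chromosomes 3 and 4 lie at or below -0.25 in every window, chromosomes 1 and 5 at or above 0.08, and chromosome 2 near 0.

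These blocks bear on how every other value reads. The scaling of the deposited table rests on all chromosomes, and it leaves a median of 0.15 (log2) on chromosomes 1, 2 and 5. With factors drawn from chromosomes 1, 2 and 5 alone, 1351 of their loci were higher in Type IV and 1364 were lower, in place of 2453 and 714. The balance of directions on these chromosomes therefore depends on the scaling. Many of the lists below are read beside that alternative, and counts given without it rest on the main scaling. With each library centred on each chromosome, 237 loci of chromosome 4 were lower and 211 higher in Type IV, and 351 of chromosome 3 were lower and 260 higher.

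On chromosomes 1, 2 and 5 the 10 loci with the largest differences in favour of Type IV were PR1, ARD3, WAK3, PNP-A, AIG1, ALD1, BIP3, SDR3, PCR1 and AT5G09290. PR1 (AT2G14610, chromosome 2, 6241640 to 6242541, minus strand) had 784, 1006 and 3204 normalized reads in Type IV, 0.903, 32.8 and 12.2 in Type III and 2993, 288 and 381 in WT. Every Type IV library exceeded every Type III library, and Type III also lay below all WT libraries. The log2 difference was 7.17 ± 0.96 (SE, adjusted p = 0.00011). ALD1, an aminotransferase of pipecolic acid synthesis (AT2G13810, chromosome 2, 5768417 to 5772266, plus strand), had 46.2, 57.5 and 191 normalized reads in Type IV, 2.71, 4.69 and 1.02 in Type III and 241, 34.6 and 31.3 in WT. Type IV lay within the WT range, and Type III was below it.

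WAK3, a wall-associated kinase that spans the cell wall and the plasma membrane, had 92.3, 56.4 and 242 normalized reads in Type IV, 0.903, 6.56 and 1.02 in Type III and 225, 33.6 and 79.4 in WT. AIG1, a gene induced by recognition of bacteria, had 544, 296 and 914 in Type IV, 9.93, 41.2 and 19.4 in Type III and 836, 134 and 174 in WT. In both genes the types did not overlap, and the Type III libraries were below all WT libraries. Among loci of chromosomes 1, 2 and 5, 32.7% had all Type IV libraries above all Type III libraries and 11% had all of them below. ARD3, acireductone dioxygenase of methionine salvage, had 31, 27.7 and 192 normalized reads in Type IV and 0, 0 and 2.04 in Type III, that is, 2 reads in all. Its ratio was 123, with a 95% counting interval of 35.1 to 1062, and in WT it had 1108, 121 and 158. BIP3, a chaperone of the endoplasmic reticulum, had 168, 95.8 and 603 in Type IV and 7.22, 23.4 and 5.1 in Type III. The other members of this group, PNP-A (a natriuretic peptide), SDR3 (a short-chain dehydrogenase), PCR1 (PLANT CADMIUM RESISTANCE 1) and AT5G09290 (an inositol monophosphatase family protein), had log2 differences of 4.76, 4.199, 4.18 and 4.105. With limma-voom ARD3 and PNP-A were not called. Type IV replicate 3 was the highest Type IV library for all 10 loci.

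The 10 loci with the largest differences the other way were AT5G02170, FKF1, PHE1, NIC2, AT5G23700, AT1G07050, AT2G38465, ELF4, AT5G18840 and AT1G56300. AT5G02170, annotated as an amino acid transporter, had 15.1, 18.1 and 16.6 normalized reads in Type IV, 309, 343 and 184 in Type III and 10.5, 9.09 and 6.02 in WT. Type IV was close to WT there and Type III far above both, with a log2 difference of -3.94 ± 0.29 (SE, adjusted p = 1.22e-06) between the types. NIC2, a nicotinamidase of NAD salvage, had 103, 77.7 and 55.7 in Type IV, 696, 1006 and 550 in Type III and 29.2, 10 and 9.63 in WT. AT1G56300, annotated as a DnaJ-domain chaperone, had 123, 110 and 79.2 in Type IV, 573, 662 and 585 in Type III and 2.34, 3.64 and 4.81 in WT. In these loci both types exceeded WT, and Type III did so by more. PHE1, a MADS-box factor known from the endosperm, had 7.96, 3.19 and 10.8 in Type IV and 77.6, 90 and 69.3 in Type III. The remaining log2 differences were -3.14 for AT5G23700, -3.14 for AT1G07050 (a CCT motif protein), -2.75 for AT2G38465 and -2.58 for AT5G18840 (annotated as a transporter of the major facilitator family).

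Clock genes divided the types from each other. Against WT, the median of the morning list was -0.11 in Type IV and -1.18 in Type III on the log2 scale, with the same WT libraries in both. In the morning list 9 of 10 tested members were higher in Type IV and 1 was lower, with a median log2 difference of 1.19, where the median of all loci was near 0. In the day to evening list 1 of 17 tested members was higher and 12 were lower, with a median of -1.49. With scaling from chromosomes 1, 2 and 5 the counts were 8 higher and 1 lower in the morning list and 0 higher and 14 lower in the day to evening list. Over all loci 15.2% were higher and 19.4% lower. Clock genes change with the hour, and the part of the hour of harvest in these differences was not tested.

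CCA1, the dawn repressor at the core of the clock (AT2G46830, chromosome 2, 19245591 to 19248915, plus strand), had 1827, 1760 and 2218 normalized reads in Type IV, 377, 407 and 435 in Type III and 3303, 2724 and 2773 in WT. Each type formed a level of its own, with Type IV between Type III and WT. The log2 difference between the types was 2.24 (adjusted p = 1.7e-07), and against WT it was -0.60 in Type IV and -2.85 in Type III. RVE8, an activator of evening genes on chromosome 3, had 550, 524 and 552 in Type IV, 107, 130 and 109 in Type III and 906, 596 and 581 in WT. It was higher in Type IV by 2.22 on the log2 scale although its chromosome was shifted the other way, and by 2.55 after centring per chromosome. RVE1, which promotes auxin synthesis under clock control, had 1325, 1085 and 775 in Type IV, 316, 356 and 428 in Type III and 987, 1070 and 1072 in WT, so that Type IV overlapped WT and Type III did not. Against WT in Type IV, CCA1 passed the test (adjusted p = 0.0017), and RVE8 and RVE1 did not (adjusted p = 0.11 and 0.98).

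The LNK coactivators followed. LNK3 had 904, 950 and 945 normalized reads in Type IV, 391, 359 and 403 in Type III and 981, 1057 and 940 in WT, and LNK2, LNK4 and LNK1 differed by 0.78, 1.41 and 0.43 on the log2 scale. RVE4 and RVE2 were higher in Type IV by 0.63 and 1.096. LNK1 lost its call with scaling from chromosomes 1, 2 and 5, and RVE4 after centring per chromosome (adjusted p = 0.052). RVE7 was the exception, with 431, 391 and 230 in Type IV, 658, 610 and 824 in Type III and 95.9, 165 and 215 in WT. Its call was lost without Type IV replicate 3 (adjusted p = 0.084) or Type III replicate 3.

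In the evening group Type III was again farther from WT. FKF1, the blue-light receptor that removes repressors of CO (AT1G68050, chromosome 1, 25508639 to 25510907, plus strand), had 25.5, 25.5 and 11.7 normalized reads in Type IV, 210, 252 and 194 in Type III and 0, 0 and 0 in WT. The WT libraries held no read of it, and the types did not overlap. The difference between the types was -3.39 on the log2 scale (adjusted p = 0.00014). The table has 2 loci with the code of FKF1, and the other was not tested because of its low mean. PRR5, a repressor of CCA1, had 373, 221 and 71.4 in Type IV, 756, 773 and 817 in Type III and 11.7, 10 and 9.63 in WT, with Type IV replicate 3 nearest to WT. PRR3 (-2.05) and COR27 (-2.22) showed the same order of groups.

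GI, the partner of FKF1, had 382, 347 and 243 normalized reads in Type IV, 932, 962 and 798 in Type III and 64.3, 65.5 and 72.2 in WT. TOC1, the evening repressor, had 415, 376 and 383 in Type IV, 604, 720 and 543 in Type III and 214, 166 and 223 in WT. LUX, the DNA-binding subunit of the evening complex, had 107, 126 and 111 in Type IV, 357, 345 and 324 in Type III and 40.9, 50.9 and 61.4 in WT. In GI, TOC1 and LUX the 3 groups did not overlap, and Type IV lay between WT and Type III. The complex's other subunits were lower in Type IV too, ELF3 by -0.69 and ELF4 by -2.60, though ELF4 was low (7.96, 4.26 and 2.93 in Type IV and 28, 73.1 and 18.3 in Type III) and lost its call without Type III replicate 2 (adjusted p = 0.0749).

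GRP7, an RNA-binding clock output, had 1137, 860 and 1267 normalized reads in Type IV, 4063, 3841 and 3991 in Type III and 166, 202 and 231 in WT. CCL, a short-lived clock output transcript on chromosome 3, had 5858, 4940 and 4610 in Type IV, 21624, 21846 and 17515 in Type III and 1162, 1675 and 1933 in WT, a log2 difference of -1.98, or -1.66 after centring per chromosome. Both outputs lay between WT and Type III in every Type IV library. PRR7 differed by -0.56, and lost its call without Type IV replicate 3 (adjusted p = 0.06). The only member called higher in Type IV was ZTL (0.29), an F-box relative of FKF1, and that call was lost with scaling from chromosomes 1, 2 and 5. PRR9, LKP2, GRP8 and CHE did not pass the test.

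**Figure D3:**
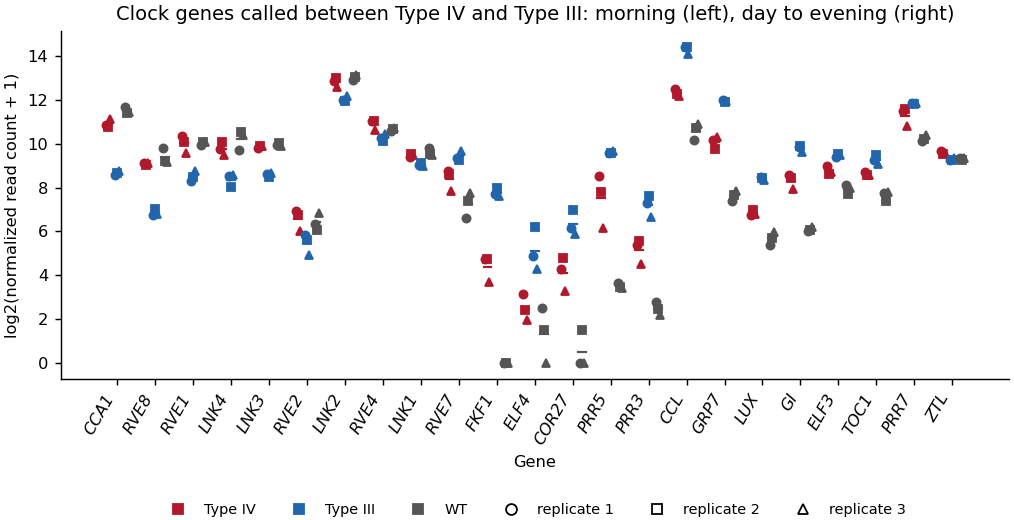
Log2(normalized read count + 1) of the clock genes called between Type IV and Type III, with 1 point per library and a bar at the mean of Type IV, Type III and WT. In CCA1, RVE8 and the LNK genes Type IV has a mean nearer to WT than Type III has, and in FKF1, PRR5, GI and CCL Type III lies highest and WT lowest.

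The evening element, AAAATATCT, is the site through which CCA1 and RVE factors act on evening genes, and it was searched on both strands in the 300 bases before each annotated gene start. It was present before 8 of the 17 tested day to evening genes (47.1%) and 1 of 10 morning genes, against 2.51% of all 37897 annotated genes with such a window and 2.86% of tested genes on chromosomes 1, 2 and 5. Among genes of chromosomes 1, 2 and 5 it stood before 8.09% of those lower in Type IV (57 of 705) and 2.01% of those higher (49 of 2441). The match describes the letters only. Stretches of 69 bases around the element are shown for 5 genes whose values were given above, in RefSeq sequence of TAIR10.1, written 5′ to 3′ in the direction of the gene, with the element or its reverse complement in capitals. FKF1 (chr1:25508423-25508491, plus strand), LUX (chr3:17182959-17183027, plus strand), TOC1 (chr5:24674782-24674850, plus strand), PRR5 (chr5:8358695-8358763, minus strand) and CCL (chr3:9827559-9827627, plus strand) read as follows.
FKF1: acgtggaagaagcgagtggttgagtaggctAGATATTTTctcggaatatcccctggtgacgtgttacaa
LUX: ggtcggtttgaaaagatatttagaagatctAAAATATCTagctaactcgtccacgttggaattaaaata
TOC1: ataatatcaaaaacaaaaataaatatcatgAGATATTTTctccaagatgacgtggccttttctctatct
PRR5: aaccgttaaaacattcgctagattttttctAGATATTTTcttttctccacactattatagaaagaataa
CCL: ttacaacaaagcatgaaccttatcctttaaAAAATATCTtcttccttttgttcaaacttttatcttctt

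Salicylic acid defence genes had a median of 1.94 on the log2 scale, the highest of the 36 lists with all libraries. Of 22 tested members 16 were higher in Type IV and none was lower, against 15.2% and 19.4% of all loci. Besides PR1 and ALD1, DMR6, which hydroxylates salicylic acid, had 1399, 1152 and 1803 normalized reads in Type IV, 256, 348 and 274 in Type III and 1818, 476 and 562 in WT. SAG101, a partner of EDS1, had 271, 263 and 354 in Type IV, 118, 149 and 114 in Type III and 283, 133 and 168 in WT. For both genes Type IV lay above Type III in every library, and 1 WT library reached the Type IV level. The other 12 called members differed by 0.54 to 3.84, and with scaling from chromosomes 1, 2 and 5 the count was 15 higher and none lower.

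Single libraries stood out in this list. Type IV replicate 3 was the highest Type IV library in all 16 called members, and WT replicate 1 was the highest WT library in all 16. Without Type IV replicate 3, 11 of 22 members were higher in Type IV and none was lower, with a median of 1.35, below the 1.55 of the wall-associated kinases. ACD6, an ankyrin protein that raises salicylic acid, showed another placement: 256, 263 and 1334 in Type IV, 90.28, 224 and 80.5 in Type III and 5500, 1993 and 2025 in WT, so that both types were below WT. The part of single libraries in the differences from WT was not tested.

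**Figure D4:**
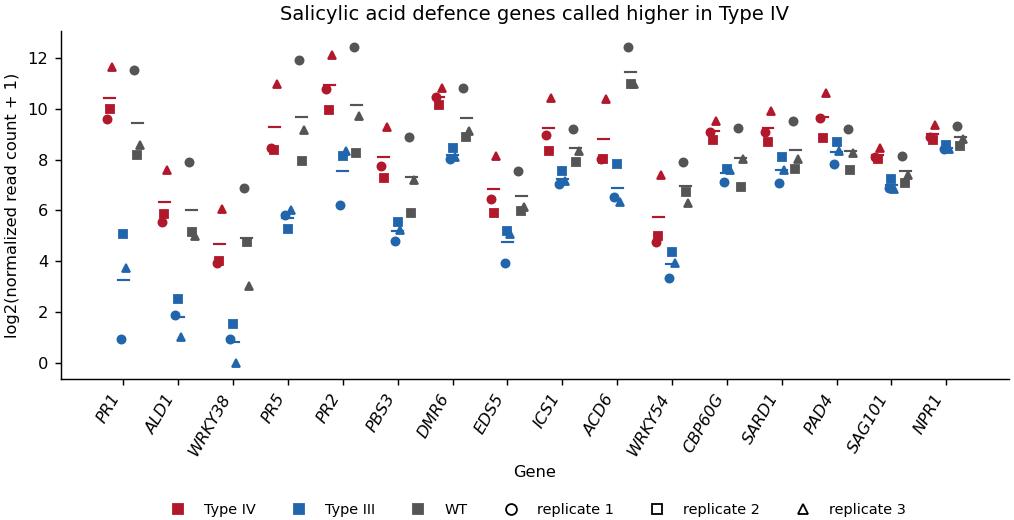
Log2(normalized read count + 1) of the 16 salicylic acid defence genes called higher in Type IV than in Type III, 1 point per library with the replicate given by the marker shape and a bar at each group mean. Type IV points lie above Type III points in every gene shown, and WT replicate 1 and Type IV replicate 3 are the highest of their groups.

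All 4 tested wall-associated kinases were higher in Type IV, WAK1 by 1.98, WAK2 by 1.00 and WAKL2 by 1.60 beside WAK3. After centring 3 of the 4 were called, and WAK2 was not (adjusted p = 0.0579). WAK1 had 958, 815 and 3251 normalized reads in Type IV, 285, 505 and 282 in Type III and 4788, 1371 and 1942 in WT, with Type III below all WT libraries. The W-box core TTGAC, the site bound by WRKY factors, searched on both strands over the same 300 bases, stood before 62.3% of genes of chromosomes 1, 2 and 5 that were at least 2-fold higher in Type IV (353 of 567), against 49.5% of all annotated genes. Before salicylic acid list members it stood in 10 of 22 cases (45.5%). Jasmonate genes, which serve wound defence, gave 5 higher and 1 lower of 29 tested (median 0.18), against 15.2% and 19.4% of all loci. With scaling from chromosomes 1, 2 and 5 the counts were 2 higher and 2 lower. Of the jasmonate genes TAT3, a jasmonate-induced tyrosine aminotransferase, had 307, 200 and 1183 in Type IV and 14.4, 127 and 55 in Type III. It lost its call without Type III replicate 1 (adjusted p = 0.0535). JAZ3, a repressor of jasmonate signalling on chromosome 3, was lower by -0.99, and by -0.66 with no call after centring (adjusted p = 0.06). Without Type IV replicate 3 the jasmonate count was 9 higher and 1 lower.

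Glucosinolates are the sulphur-rich defence compounds of Brassicaceae. Of 21 tested genes of the aliphatic branch 12 were higher in Type IV and none was lower, with a median of 0.75. With scaling from chromosomes 1, 2 and 5 the counts were 11 higher and 1 lower. Both stand beside 15.2% higher and 19.4% lower of all loci. MAM3, which elongates the methionine chain (AT5G23020, chromosome 5, 7718118 to 7721866, plus strand), had 109, 76.6 and 91.9 normalized reads in Type IV, 24.4, 23.4 and 25.5 in Type III and 111, 100 and 135 in WT. MYB29, an activator of the branch, had 177, 128 and 182 in Type IV, 79.4, 105.0 and 60.1 in Type III and 278, 204 and 193 in WT. Type III was below WT and below Type IV in both genes, and Type IV reached into the WT range only for MAM3. FMO GS-OX3, which oxidizes the side chain, differed by 1.32 and UGT74C1, a glucosyltransferase of the branch, by 0.59.

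Of 19 tested indole glucosinolate and camalexin genes 9 were higher and none was lower, against 15.2% and 19.4% of all loci. The median was 0.95, and 5 were higher without Type IV replicate 3. With scaling from chromosomes 1, 2 and 5 the counts were 8 higher and 1 lower. MYB51, the activator of this branch, had 110, 108 and 177 normalized reads in Type IV, 55.1, 57.2 and 63.2 in Type III and 160, 84.6 and 102 in WT. Type IV again shared the range of WT, with Type III beneath. SOT16, the sulphotransferase of the last step, differed by 0.99, CYP81F2, which modifies the indole ring, by 1.84 and CYP79B3, which acts on tryptophan, by 0.84. CYP79B3 lost its call without Type III replicate 1 or 3 (adjusted p up to 0.0753).

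In flavonol and anthocyanin synthesis 9 of 20 tested genes were higher in Type IV and 1 was lower, with a median of 0.58. With scaling from chromosomes 1, 2 and 5 the counts were 7 higher and 2 lower. Both stand beside 15.2% higher and 19.4% lower of all loci. UGT78D2, a flavonoid glucosyltransferase, had 252, 211 and 216 normalized reads in Type IV, 84.9, 75.9 and 127 in Type III and 400, 326 and 359 in WT. TT19, a glutathione S-transferase of pigment transport, had 40.6, 47.9 and 58.7 in Type IV, 5.42, 15 and 15.3 in Type III and 199, 164 and 90.25 in WT. Both types were below WT in these genes, Type III by more. FLS1, flavonol synthase, differed by 1.118. MYBL2, a repressor of the pathway, went the other way with 1059, 918 and 791 in Type IV, 1585, 1567 and 1498 in Type III and 449, 663 and 647 in WT.

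**Figure D5:**
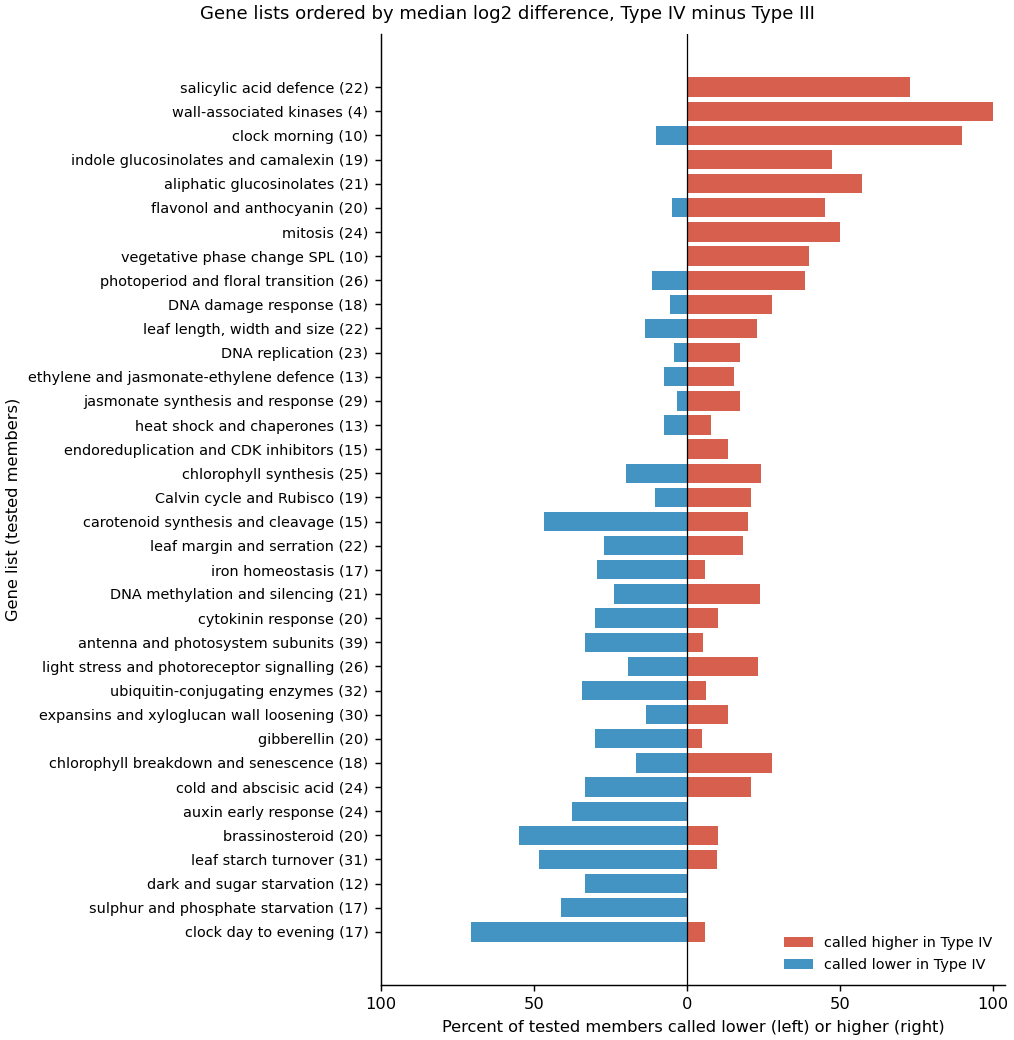
Percent of the tested members of each gene list called lower in Type IV (left, blue) and higher in Type IV (right, red), with the number of tested members in parentheses and lists ordered by median log2 difference. Salicylic acid defence stands at the top and clock day to evening at the bottom.

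Flowering regulators gave 10 higher and 3 lower of 26 tested, against 15.2% and 19.4% of all loci. The median was 0.37, and the counts were 6 and 6 with scaling from chromosomes 1, 2 and 5. CDF1, SNZ, TEM2 and TOE1 were higher in Type IV and lost their calls with that scaling (adjusted p = 0.07, 0.126, 0.112 and 0.0588). AGL24 was lower and lost its call after centring (adjusted p = 0.252). FLC, the MADS repressor of flowering on chromosome 5, had 269, 167 and 127 normalized reads in Type IV, 67.7, 47.8 and 57.1 in Type III and 49.1, 82.7 and 73.4 in WT. Type IV stood above both other groups in every library, and Type III overlapped WT. The difference between the types was 1.63 on the log2 scale (adjusted p = 0.0012). SOC1, a floral activator that FLC represses, had 595, 742 and 617 in Type IV, 1147, 1357 and 1327 in Type III and 354, 341 and 396 in WT, so that both types were above WT. FUL, another floral MADS gene, was lower in Type IV by -0.68 and lost its call in several alternatives, among them without Type IV replicate 3 (adjusted p = 0.0645).

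CDF2, a repressor of CO that FKF1 and GI degrade, had 525, 445 and 501 normalized reads in Type IV, 127, 143 and 129 in Type III and 534, 471 and 446 in WT. COL1, a relative of CO, had 935, 890 and 983 in Type IV, 258, 213 and 350 in Type III and 1146, 978 and 1035 in WT. COL2, on chromosome 3, had 1002, 977 and 915 in Type IV, 289, 264 and 315 in Type III and 1396, 1381 and 1296 in WT. In CDF2 and COL1 Type IV overlapped WT, whereas in COL2 it lay below WT, and Type III was lowest in all 3 genes. CDF5 (1.09) and TOE3 (0.94), a relative of APETALA2, were also higher in Type IV.

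The SPL factors promote the change to adult leaves. Of 10 tested members 4 were higher in Type IV and none was lower (median 0.42), against 15.2% and 19.4% of all loci. With scaling from chromosomes 1, 2 and 5 the counts were 2 and 1. SPL10 (AT1G27370, chromosome 1, 9505112 to 9508542, minus strand) had 158, 160 and 163 normalized reads in Type IV, 111, 94.7 and 80.5 in Type III and 127, 115 and 114 in WT. All Type IV libraries were above WT and all Type III libraries below it. SPL11, its neighbour on the chromosome, had 102, 82 and 93.9 in Type IV, 41.5, 40.3 and 36.7 in Type III and 84.2, 60.9 and 55.4 in WT, where Type IV overlapped WT. SPL2 (0.62) and SPL6 (0.42) lost their calls with scaling from chromosomes 1, 2 and 5 (adjusted p = 0.12 and 0.17) and with several single libraries left out (adjusted p up to 0.184 and 0.145).

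Loci on opposite sides of WT were counted over the whole table. For 351 loci called between the types, all Type IV libraries lay on 1 side of every WT library and all Type III libraries on the other. Chromosome 4 held 123 of them, 122 with Type IV below, and chromosome 3 held 92, 91 with Type IV below. On chromosomes 1, 2 and 5 there were 136, of which 31 had Type IV below and the others above. Against WT, 33% of all loci were called in Type IV and 47.6% in Type III. When a call in each type against WT was also required, 81 loci remained, 40 on chromosome 4, 19 on chromosome 3 and 22 on chromosomes 1, 2 and 5, of which 16 had Type IV above. All of those on chromosomes 3 and 4 had Type IV below.

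Leaf margin genes gave 4 higher and 6 lower of 22 tested, and 4 of the 6 lower ones lie on chromosomes 3 and 4, where 47.5% and 38.5% of all loci were lower. Over all loci 15.2% were higher and 19.4% lower, so the shares of this list are near those of the table. The median of the list was 0.05, and -0.10 with scaling from chromosomes 1, 2 and 5, where 3 were higher and 8 lower. TCP2, a factor that limits growth of the leaf edge (AT4G18390, chromosome 4, 10162922 to 10165583, minus strand), had 123, 133 and 148 normalized reads in Type IV, 275, 267 and 227 in Type III and 203, 205 and 208 in WT. Type IV was below WT and Type III above it, with a log2 difference of -0.92, or -0.63 after centring per chromosome (adjusted p = 0.0026). TCP4 and TCP13, of the same class on chromosome 3, differed by -0.55 and -0.74 and lost their calls after centring (adjusted p = 0.31 and 0.19). BLH2 of chromosome 4 also lost its call after centring (adjusted p = 0.14). TCP13 lost its call without Type IV replicate 3 or Type III replicate 2 as well (adjusted p up to 0.0606). TCP24 on chromosome 1 had 319, 296 and 284 in Type IV, 396, 420 and 365 in Type III and 377, 352 and 326 in WT, and lost its call with library totals as scaling (adjusted p = 0.103). TCP3, in turn, had 300, 246 and 307 in Type IV, 183, 183 and 148 in Type III and 246, 235 and 235 in WT, so that the TCP factors of this class did not share a direction. TCP5 and TCP10 were higher in Type IV too. TCP5 lost its call after centring (adjusted p = 0.186), and TCP10 with scaling from chromosomes 1, 2 and 5 (adjusted p = 0.238). AS1, a MYB factor of leaf polarity, was higher in Type IV by 0.75, and BLH4, a homeodomain protein, was lower by -0.68. NGA1, NGA2 and NGA3, which act at the leaf margin, and STM, KNAT1, KNAT2 and KNAT6, which mark the meristem, did not pass the test.

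Genes of leaf length, width and size gave 5 higher and 3 lower of 22 tested (median 0.22), against 15.2% and 19.4% of all loci. The counts were 1 and 4 with scaling from chromosomes 1, 2 and 5, and 2 higher and none lower after centring. ROT3, whose P450 enzyme acts in brassinosteroid synthesis and lengthens leaves (AT4G36380, chromosome 4, 17187528 to 17192507, minus strand), had 43, 52.2 and 51.8 normalized reads in Type IV, 28.9, 21.6 and 19.4 in Type III and 37.4, 27.3 and 32.5 in WT. The types did not overlap, with Type IV above all WT libraries, and the log2 difference was 1.06, or 1.35 after centring. LNG1, which promotes lengthwise growth, had 337, 424 and 440 in Type IV and 273, 283 and 287 in Type III, and GIF1, a coactivator of cell proliferation, differed by 0.43. Both lost their calls with scaling from chromosomes 1, 2 and 5 (adjusted p = 0.056 and 0.15), as did GIF2 and GRF1, and GIF1, GIF2 and GRF1 each lost it with some single libraries left out (adjusted p up to 0.167, 0.141 and 0.109). AN, KLU and DA1, which set width and size, did not pass the test. PPD1 (-0.62), EBP1 (-0.38) and ARGOS (-1.65) were lower in Type IV. These 3 genes lie on chromosomes 4 and 3, lost their calls after centring and lost them with some single libraries left out (adjusted p up to 0.0858, 0.0951 and 0.133).

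In chlorophyll synthesis 6 of 25 tested genes were higher and 5 were lower, against 15.2% and 19.4% of all loci. All 6 higher ones lie on chromosomes 1, 2 and 5, and all 5 lower ones on chromosomes 3 and 4. The median was 0.07, and -0.08 with scaling from chromosomes 1, 2 and 5, where 4 were higher and 8 lower. GLK2, an activator of chloroplast genes (AT5G44190, chromosome 5, 17798262 to 17800926, plus strand), had 1928, 1606 and 1552 normalized reads in Type IV, 1006, 921 and 1065 in Type III and 1428, 1553 and 1590 in WT. GLK1 differed by 0.68 and lost its call without Type IV replicate 3 or Type III replicate 2 (adjusted p up to 0.0737), HEMA2, of the first committed step, by 0.63 and CAO, which makes chlorophyll b, by 0.51. CAO had 0.28 after centring and lost its call (adjusted p = 0.104). GSA1 and LIN2 were higher too and lost their calls with scaling from chromosomes 1, 2 and 5 (adjusted p = 0.0524 and 0.189). PORB, the light-dependent reductase (AT4G27440, chromosome 4, 13725546 to 13727440, plus strand), had 7169, 7106 and 5929 in Type IV, 13163, 13326 and 13319 in Type III and 5934, 6170 and 6438 in WT. Type III stood at about the same high value in all 3 libraries, and Type IV overlapped WT, with -0.98 on the log2 scale, or -0.69 after centring. HEME1, GSA2 and HEMG1 were lower by -0.55, -0.39 and -0.43 and lost their calls after centring. CHLI1 (-0.29) was not called with 5 of the 6 libraries left out in turn (adjusted p up to 0.0903) and changed sign after centring.

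Chlorophyll breakdown gave 5 higher and 3 lower of 18 tested, against 15.2% and 19.4% of all loci, with a median of -0.28. NYC1, a chlorophyll b reductase on chromosome 4, had 812, 798 and 691 normalized reads in Type IV, 1523, 1636 and 1477 in Type III and 813, 834 and 860 in WT, so that Type III alone stood above WT. HCAR, which acts after it in the conversion of chlorophyll b, had 250, 251 and 261 in Type IV, 377, 379 and 361 in Type III and 361, 309 and 310 in WT, where Type IV alone stood below. SAG21, a late embryogenesis abundant protein of senescing leaves, had 281, 264 and 720 in Type IV, 49.7, 58.1 and 89.7 in Type III and 641, 399 and 380 in WT.

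Antenna and photosystem genes gave 2 higher and 13 lower of 39 tested (median -0.14), against 15.2% and 19.4% of all loci. With scaling from chromosomes 1, 2 and 5 the counts were 1 higher and 18 lower, and after centring 1 and 8. The lower ones included all 5 tested members on chromosome 4 and 5 of 7 on chromosome 3. On chromosomes 1, 2 and 5, 2 of 27 were higher and 3 lower. LHCA4, an antenna protein of photosystem I on chromosome 3, had 90722, 105853 and 84947 normalized reads in Type IV, 159820, 155579 and 170203 in Type III and 93699, 105126 and 101946 in WT, and Type III was above both other groups. LHCA2 behaved likewise (-0.75), and both stayed called after centring (adjusted p = 0.042 and 0.045), whereas LHCB5 of chromosome 4 (-0.64) did not. PSBS, which dissipates excess light, had 15090, 14035 and 14436 in Type IV, 7866, 7927 and 8743 in Type III and 19125, 22298 and 21210 in WT. RBCS1B, a small subunit of Rubisco, had 7697, 6280 and 7635 in Type IV, 2945, 2613 and 4114 in Type III and 13291, 19655 and 17671 in WT. For PSBS and RBCS1B the 3 groups did not overlap and Type IV lay between. FBA1, an aldolase of the Calvin cycle, and RBCS2B were each higher by 0.93, among 4 higher and 2 lower of 19 tested Calvin cycle genes (median 0.07, and -0.08 with scaling from chromosomes 1, 2 and 5).

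Carotenoid genes gave 3 higher and 7 lower of 15 tested, against 15.2% and 19.4% of all loci. Their median was 0.06, and -0.08 with scaling from chromosomes 1, 2 and 5. The lower ones included all 4 tested members on chromosome 3 and 2 of 3 on chromosome 4. On chromosomes 1, 2 and 5, 3 of 8 were higher and 1 lower, and after centring the whole list had 3 and 3. Among the called were PSY, phytoene synthase (0.53), BETA-OHASE 2, a carotene hydroxylase (1.097), and NCED4, a cleavage enzyme on chromosome 4 (-1.04). HYH, a light-signalling bZIP factor on chromosome 3 (AT3G17609, 6023844 to 6024710, plus strand), had 120, 105.4 and 144 normalized reads in Type IV, 9.93, 23.4 and 17.3 in Type III and 210, 163 and 165 in WT. The 3 groups did not overlap, and the difference between the types was 2.86 (adjusted p = 2.1e-06). CRY1 and PHYE, photoreceptors on chromosome 4, had 2055, 2031 and 2176 and 290, 251 and 250 in Type IV, against 2978, 2888 and 3053 and 470, 431 and 394 in Type III. After centring, CRY1 lost its call (adjusted p = 0.087) and PHYE kept it (adjusted p = 0.024). The light stress and photoreceptor list as a whole had 6 higher and 5 lower of 26 tested (median -0.17), and 3 and 8 with scaling from chromosomes 1, 2 and 5.

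Leaf starch is made by day and broken down at night. Of 31 tested genes of its turnover 3 were higher in Type IV and 15 lower, against 15.2% and 19.4% of all loci. The median was -0.56, and with scaling from chromosomes 1, 2 and 5 the counts were 3 and 16. PHS2, a cytosolic glucan phosphorylase (AT3G46970, chromosome 3, 17301394 to 17306633, minus strand), had 1098, 1053 and 873 normalized reads in Type IV, 3282, 3787 and 3233 in Type III and 782, 732 and 629 in WT. ISA3, a debranching enzyme, had 235, 224 and 261 in Type IV, 861, 860 and 660 in Type III and 164, 106 and 102 in WT. Type III was above the other groups by the widest margin in both genes. They lie on chromosomes 3 and 4, and centring left differences of -1.44 and -1.42. PHS1, the chloroplast phosphorylase, differed by -1.32. GBSS1, starch synthase of amylose (AT1G32900, chromosome 1, 11920390 to 11923866, minus strand), went the other way with 1035, 862 and 684 in Type IV, 289, 266 and 340 in Type III and 1842, 1753 and 1604 in WT.

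Genes induced by darkness or lack of sugar gave none higher and 4 lower of 12 tested, with a median of -0.72. This list and the cold list below stand beside 15.2% higher and 19.4% lower of all loci. TPS11, a trehalose phosphate synthase family member, had 2641, 3208 and 1895 normalized reads in Type IV, 5635, 5488 and 5264 in Type III and 1575, 2185 and 2256 in WT. DIN3 (-1.21) and DIN4 (-0.63), enzyme subunits of branched-chain amino acid breakdown, and BT2 (-1.11) lie on chromosome 3. After centring DIN3 and BT2 lost their calls (adjusted p = 0.076 and 0.13) and DIN4 did not. BT2 also lost its call without Type IV replicate 3 or Type III replicate 3 (adjusted p up to 0.101). Cold and abscisic acid genes gave 5 higher and 8 lower of 24 tested, with a median of -0.38. COR15A, a chloroplast protein of freezing tolerance, had 398, 461 and 369 in Type IV, 1062, 1050 and 883 in Type III and 324, 516 and 273 in WT. COR413-PM1 (-1.33) and COR413IM1 (-1.14) were lower likewise, while HAB1, a phosphatase that restrains abscisic acid signalling, was higher by 0.88. For COR15A Type IV overlapped WT, and Type III was above both. The whole cold and abscisic acid list had a median log2 difference from WT of 0.69 in Type IV and 0.97 in Type III.

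The growth hormone lists are read beside all loci, of which 15.2% were higher and 19.4% lower in Type IV. Early auxin genes gave none higher and 9 lower of 24 tested (median -0.44), and 3 lower after centring. IAA19, an auxin-induced repressor (AT3G15540, chromosome 3, 5264001 to 5265695, plus strand), had 35.8, 44.7 and 46 normalized reads in Type IV, 135, 83.4 and 111 in Type III and 55, 49.1 and 50.5 in WT. GH3.3, which conjugates auxin, had 93.9, 76.6 and 62.6 in Type IV, 178, 154 and 152 in Type III and 72.5, 85.5 and 78.2 in WT. Type III was above WT in both, and Type IV was below WT for IAA19 and overlapped it for GH3.3. GH3.6 differed by -0.54 and lost its call without Type III replicate 2 (adjusted p = 0.0624), and IAA7 by -0.51 with no call after centring. Without Type IV replicate 3 the list count was 5 lower.

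Brassinosteroid genes gave 2 higher and 11 lower of 20 tested (median -0.49), and 1 and 5 after centring. With scaling from chromosomes 1, 2 and 5 the counts were 2 and 14. DWF1 and DWF7, synthesis enzymes on chromosome 3, were lower by -0.56 and -0.73 and lost their calls after centring (adjusted p = 0.1 and 0.11), and so did DWF5, a sterol reductase on chromosome 1, which was higher by 0.43 before centring and had 0.20 after it (adjusted p = 0.0914). Gibberellin genes gave 1 higher and 6 lower of 20, with a median of -0.28. GA2OX2, which inactivates gibberellin, had 120, 73.4 and 62.6 normalized reads in Type IV, 157, 206 and 173 in Type III and 39.8, 27.3 and 34.9 in WT, and GA20OX1, which makes it, had 14.3, 9.58 and 15.6 in Type IV, 36.1, 36.6 and 30.6 in Type III and 21, 41.8 and 28.9 in WT. An inactivating and a synthesizing enzyme were thus both lower in Type IV. Cytokinin response genes gave 2 higher and 6 lower of 20 (median -0.06), with ARR16, a response regulator on chromosome 2, at 58.9, 68.1 and 65.5 in Type IV, 153, 142 and 111 in Type III and 84.2, 50.9 and 57.8 in WT. ARR9 (-0.96) and CKX6 (-0.82) lie on chromosome 3, and CKX6 lost its call after centring. In ethylene response 2 were higher and 1 lower of 13 tested (median 0.18), and 1 and 2 with scaling from chromosomes 1, 2 and 5. The lower one with the main scaling, EIN3, the main transcription factor, differed by -0.68. Of expansins and xyloglucan enzymes, which loosen the wall, 4 were higher and 4 lower of 30 tested (median -0.27). With scaling from chromosomes 1, 2 and 5, 2 were higher and 8 lower (median -0.41). EXPA10 differed by 0.62, with no call after centring (adjusted p = 0.0946), and EXPA4 by -0.70.

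Mitotic genes gave 12 higher and none lower of 24 tested, with a median of 0.42, and 8 higher with scaling from chromosomes 1, 2 and 5. All 12 were among the 16 tested members on chromosomes 1, 2 and 5, where 21.6% of all loci were higher. HINKEL, a kinesin of cell division, had 276, 280 and 357 normalized reads in Type IV, 182, 180 and 157 in Type III and 309, 292 and 279 in WT. CYCB1;2, a mitotic cyclin, had 247, 273 and 273 in Type IV, 175, 185 and 152 in Type III and 187, 195 and 219 in WT. Type III lay below WT for both genes, and Type IV above WT for CYCB1;2 only. KNOLLE, a syntaxin of the cell plate, differed by 0.64 and TPX2, a spindle protein, by 0.65. DNA replication genes gave 4 higher and 1 lower of 23 tested (median 0.19), against 15.2% and 19.4% of all loci. With scaling from chromosomes 1, 2 and 5 the counts were 1 higher and 2 lower. The replication gene called lower with the main scaling was CDC6, a loader of replication origins (AT2G29680, chromosome 2, 12689171 to 12693121, plus strand). It had 55.7, 73.4 and 49.9 in Type IV, 239, 237 and 307 in Type III and 50.3, 74.6 and 78.2 in WT, so that Type III alone was high. Among genes of endoreduplication 2 of 15 tested were higher and none was lower (median 0.07). Of these KRP3, an inhibitor of cyclin-dependent kinases, had 15.1, 20.23 and 25.4 in Type IV, 7.22, 6.56 and 5.1 in Type III and 24.6, 16.4 and 20.5 in WT.

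In DNA damage response 5 were higher and 1 was lower of 18 tested, against 15.2% and 19.4% of all loci, with a median of 0.33. PARP2, a poly(ADP-ribose) polymerase (AT4G02390, chromosome 4, 1049766 to 1054186, plus strand), had 124, 103 and 156 normalized reads in Type IV, 48.7, 52.5 and 51 in Type III and 65.5, 69.1 and 61.4 in WT. RAD17, a checkpoint gene, had 96.3, 75.6 and 94.9 in Type IV, 55.1, 24.4 and 53 in Type III and 32.7, 29.1 and 34.9 in WT. Both genes were highest in Type IV in every library. Type III lay below WT for PARP2 and overlapped WT for RAD17. ATM, the damage kinase on chromosome 3, was lower by -0.45 and lost its call after centring (adjusted p = 0.46).

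Of genes for sulphur and phosphate starvation none was higher and 7 were lower of 17 tested, with a median of -0.84. This list and the iron list below stand beside 15.2% higher and 19.4% lower of all loci. PHO2, a ubiquitin-conjugating enzyme (UBC24) that restrains phosphate uptake, had 1381, 1390 and 1497 normalized reads in Type IV, 2715, 2636 and 2530 in Type III and 1515, 1356 and 1520 in WT, with Type III alone above WT. APR3, of sulphate reduction, had 58.1, 72.4 and 89 in Type IV, 127, 240 and 175 in Type III and 263, 305 and 184 in WT. Iron genes gave 1 higher and 5 lower of 17, with a median of 0.02 that was -0.12 with scaling from chromosomes 1, 2 and 5. VTL5, a vacuolar iron transporter-like gene on chromosome 3, had 70.8, 73.4 and 74.3 in Type IV, 218, 219 and 223 in Type III and 22.2, 30.9 and 40.9 in WT, with no overlap among the 3 groups. NAS3 and NAS4, nicotianamine synthases, went opposite ways at -1.14 and 1.42.

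Among ubiquitin-conjugating enzymes 2 were higher and 11 lower of 32 tested (median -0.17), against 15.2% and 19.4% of all loci. With scaling from chromosomes 1, 2 and 5 none was higher and 16 were lower. The 11 lower ones included 5 of 6 tested on chromosome 3 and 2 of 2 on chromosome 4. Besides PHO2, UBC2, which ubiquitinates histone H2B, had 781, 821 and 745 normalized reads in Type IV, 1199, 1300 and 1199 in Type III and 495, 486 and 498 in WT, with the 3 groups apart. UBC13 (-0.75) and UBC9 (-0.39), on chromosomes 3 and 4, lost their calls after centring. Genes of DNA methylation and silencing gave 5 higher and 5 lower of 21, with a median near 0, and none higher and 2 lower after centring. With scaling from chromosomes 1, 2 and 5 they gave 1 higher and 6 lower, with a median of -0.15. Heat shock genes gave 1 higher and 1 lower of 13 (median 0.14), with BAG6, a cochaperone, at 119, 102 and 111 in Type IV, 209, 233 and 195 in Type III and 44.4, 36.4 and 33.7 in WT.

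The largest differences on chromosome 4, where the block was shifted down, kept both signs. AT4G00700, a C2 domain protein, had 175, 111 and 418 normalized reads in Type IV, 4.51, 24.4 and 16.3 in Type III and 410, 50 and 113 in WT. AT4G10500 (an oxygenase), AT4G25070 (no name in the files), CRK37 and CRK23 (receptor-like kinases) followed with log2 differences of 3.89, 3.61, 3.53 and 3.47. AT4G10500 was not called with limma-voom (adjusted p = 0.187). In all 5 loci Type IV replicate 3 was highest among Type IV libraries. The lowest was TPS03, a terpene synthase (AT4G16740, chromosome 4, 9407611 to 9411140, plus strand), with 0.796, 1.06 and 0 in Type IV, 19, 132 and 19.4 in Type III and 1.17, 0 and 0 in WT. Type IV held 2 reads of it in all, and the ratio of Type III to Type IV had a 95% counting interval of 25.2 to 768. RbcX1, a chaperone of Rubisco assembly, had 103, 108 and 80.2 in Type IV, 487, 608 and 532 in Type III and 55, 63.6 and 74.6 in WT, and centring left -2.19 (adjusted p = 3.9e-06). AT4G33980, AT4G37220 (annotated as a cold acclimation protein) and AT4G36820 differed by -3.08, -2.95 and -2.56.

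On chromosome 3 the highest loci were AT3G28510, AT3G15310, AT3G13610, UGT76B1 and AT3G61280. AT3G15310, annotated as a transposable element gene, had 60.5, 57.5 and 102 normalized reads in Type IV, 0, 1.87 and 2.04 in Type III and 97.1, 60 and 44.5 in WT, so that Type III alone was near 0. AT3G13610, annotated as the oxygenase F6'H1, had 11.1, 20.23 and 98.8 in Type IV, 0, 0 and 0 in Type III and 120, 4.55 and 8.42 in WT. It was at least 45.5-fold higher in Type IV, with a floor of 3 reads over the Type III libraries. UGT76B1, a glucosyltransferase of immune signals, had 6.37, 17 and 171 in Type IV and 0, 2.81 and 1.02 in Type III, and its call was lost without Type IV replicate 3, Type III replicate 1 or Type III replicate 3 (adjusted p up to 0.135). AT3G28510 and AT3G61280 differed by 5.13 and 3.40, and AT3G28510 was not called with limma-voom (adjusted p = 0.0726). Among the lowest, AT3G62550, annotated as an adenine nucleotide alpha hydrolase-like protein, had 719, 732 and 619 in Type IV, 4083, 4160 and 4785 in Type III and 87.7, 183 and 177 in WT. AT3G46370, a leucine-rich repeat kinase, had 84.4, 115 and 153 in Type IV, 619, 604 and 535 in Type III and 203, 134 and 148 in WT. RCI2A, a small membrane protein of cold and salt response, had 348, 393 and 288 in Type IV, 1780, 1908 and 1347 in Type III and 296, 347 and 306 in WT. Type III was above WT in each of these, while Type IV overlapped WT in the kinase and in RCI2A. AT3G43850 (-3.19) and CYP81D11 (-2.24) completed the lowest 5, and CYP81D11 lost its call without Type IV replicate 3 or Type III replicate 2 (adjusted p up to 0.0546).

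Markers of leaf cell types are given beside all loci, of which 15.2% were higher and 19.4% lower in Type IV. Epidermis and cuticle markers gave 4 higher and none lower of 7 tested. With scaling from chromosomes 1, 2 and 5 they gave 3 and 2, and after centring 2 and none. Their summed level was 17372 to 20584 normalized reads in Type IV, 13837 to 14679 in Type III and 15386 to 17288 in WT. CER6, of wax synthesis, had 7044, 6866 and 5601 in Type IV, 4380, 4351 and 3949 in Type III and 5374, 4203 and 4301 in WT, and lost its call after centring (adjusted p = 0.0759). Guard cell and stomatal lineage markers gave 6 higher and 3 lower of 13, and 2 of the lower ones lie on chromosome 3. The counts were 4 and 3 with scaling from chromosomes 1, 2 and 5 and 3 and 1 after centring. Without Type IV replicate 3 they were 3 and 2. Their sums were 1437 to 1636 in Type IV, 1642 to 1702 in Type III and 1789 to 1888 in WT. SPCH, which starts the stomatal lineage, had 48.6, 43.6 and 65.5 in Type IV, 28, 17.8 and 26.5 in Type III and 67.8, 80 and 77 in WT. Trichome markers summed to 1239 to 1638 in Type IV, 1982 to 2022 in Type III and 1500 to 1657 in WT. Of 8 tested, 1 was higher and 2 lower. Type IV thus overlapped WT in this sum, and Type III lay above both. Phloem and vasculature markers summed to 9027 to 9712 in Type IV, 9983 to 10122 in Type III and 9132 to 10071 in WT, with 1 higher and 4 lower of 12. Flower and pollen markers summed to 517 to 965 in Type IV, 359 to 684 in Type III and 431 to 541 in WT. Of 4 tested, 1 was higher and 1 lower. The lower one, AG on chromosome 4, differed by -2.44 after centring and stayed called (adjusted p = 0.00386). The higher one, OPR3, lost its call with scaling from chromosomes 1, 2 and 5 (adjusted p = 0.0743). No mesophyll, root or shoot meristem marker passed the test. None of these markers was at 0 in a type's libraries except root, seed and flower markers, and the part of cell type in the other differences was not tested.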

How the data were processed

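RNA-seq of leaf RNA (15 libraries) used a kit without strand marking, so reads of overlapping antisense genes cannot be told apart. Per the submitters' processing notes the genome was TAIR10, and the tools named are DESeq2 1.12.4, HTSeq 0.6.0, StringTie 1.0.3 and STAR 2.4.0j; the role of each is not given. The deposited table holds signal values of 34307 loci, which are read counts divided by a size factor per library by the authors: 100% of values were whole multiples of 1 step per library within 1e-06, so whole reads were recovered (8865955 to 13138977 per library). Loci with no gene code held 0.136% of reads. Of 32580 codes 31881 were in the RefSeq annotation of TAIR10.1, which gave chromosomes, coordinates and the promoter sequence. Column names of 2 libraries carried a slip and were matched by title.

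log2(value + 1) of 17595 loci with a mean of at least 10 was fitted with limma 3.58.1 (R 4.3.3, mean-variance trend, 5 groups, 15 libraries), with Benjamini-Hochberg adjustment over all loci and calls at 0.05. edgeR 4.0.16 on the recovered reads was an alternative, since the deposited unit is not counts, and called 6188 loci. Fold changes are on the log2(value + 1) scale and understate low genes. p-values measure the spread between libraries, whose independence is known only from their label as biological replicates. The shift of a chromosome is its median log2 difference minus that of chromosomes 1, 2 and 5. Centring subtracts each library's median per chromosome. Floors (3 reads) and 95% intervals cover counting error only.

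Of 988 list symbols 970 were matched, in 36 lists and 9 marker lists. The members, lists and tests were chosen with earlier results of these data known. Named are UBC22, on chromosomes 1, 2 and 5 the 10 highest and 10 lowest called loci with at least 2 CPM and groups that do not overlap, 5 each on chromosomes 4 and 3, the called members of each list ranked by p down to the fourth, and members of the clock, leaf, chlorophyll and flowering lists. ACD6 was named after its values were seen. Alternatives were other scalings, filters and pseudocounts, edgeR, DESeq2 1.42.0, limma-voom, the 6 libraries alone, a 2-fold minimum and each library left out. Scaling from chromosomes 1 and 5, shifts against them, and counts per list without Type IV replicate 3 or under other scalings were added after seeing the data.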

Additional observations from a re-analysis of the deposited data

Results flagged for a closer look

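SPL10 was picked out because the types moved to opposite sides of WT, every Type IV library above all WT libraries and every Type III library below them, with a tested difference between the types. Its log2 difference was 0.43 in Type IV and -0.33 in Type III against the same WT libraries, and 0.75 between the types (limma, adjusted p = 0.000299). The difference between the types was called in all alternatives other than the 2-fold minimum. The differences from WT were not refitted in the alternatives, which therefore do not bear on the opposite sides. Loci of chromosomes 1, 2 and 5 had medians of 0.05 in Type IV and -0.10 in Type III against WT, as means over libraries. The part of the scaling in SPL10's differences from WT was not tested.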

How the results depend on the processing

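No paired analysis was possible because the labels carry no replicate numbers; those used here follow accession order and only name a library. Counts of called loci moved most with centring per chromosome and with a 2-fold minimum. Centring gave 3133 loci in all, 2062 on chromosomes 1, 2 and 5, 448 on chromosome 4 and 611 on chromosome 3. The 2-fold minimum gave 1181, 717, 184 and 274 loci, and 122 of 341 called list members, since it adds a condition. edgeR called 6188 loci, DESeq2 5900 and limma-voom 6181. Leaving out 1 library gave 4508 to 5206 loci. The chromosome 3 shift was -0.52, and -0.50 with a pseudocount of 5, -0.44 with no filter on low values, -0.56 against chromosomes 1 and 5, and -0.52 to -0.50 with 1 library left out; the cause was not tested. The chromosome 4 shift ranged from -0.52 to -0.42 with 1 library left out. UBC22 changed sign to -0.12 with scaling from chromosomes 1, 2 and 5, -0.16 from chromosomes 1 and 5, -0.22 after centring, and lay between -0.12 and 0.19 with 1 library left out, never called; the cause was not tested. Among 230 called genes followed through the alternatives, CHLI1 alone changed sign (0.0047 after centring), 62 lost their call after centring, 25 with scaling from chromosomes 1, 2 and 5, 117 with the 2-fold minimum and 15 to 24 with 1 library left out. With library totals as scaling, 3779 loci of chromosomes 1, 2 and 5 were higher and 414 lower. Low depth limits ELF4, with 17 reads over the Type IV libraries, and ARD3 and TPS03, with 2 reads over 1 type. It also limits AT3G13610, which had no read in Type III, and UGT76B1, AT3G15310, ALD1 and WAK3, which were low in Type III.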
